A study of Mus musculus with 9 samples.

Results

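The genes described here are the core of the machinery that controls the G1 phase of the cell cycle, followed across naive and primed mouse CD8 T cells. They were chosen by symbol, and all 10 had a row among the 23936 genes with a symbol: the D cyclins Ccnd2 and Ccnd3, the kinases Cdk4, Cdk6 and Cdk2, the inhibitors Cdkn2c, Cdkn2d, Cdkn1a and Cdkn1b, and the retinoblastoma gene Rb1. RNA was sequenced from OT-I cells, CD8 T cells that carry a transgenic receptor for an ovalbumin peptide and are therefore all of one specificity. The 9 libraries comprise 3 of MLN-primed cells taken from the mesenteric lymph node (MLN, which drains the gut), 3 of spleen-primed cells taken from the spleen, and 3 of naive cells also taken from the spleen. Sample titles add "oral" to the MLN-primed and "iv" to the spleen-primed cells, and the effect of the organ cannot be told apart from that of whatever these words stand for. Neither the time after priming, the age and strain of the mice nor the gate used to isolate the cells is given in the sources used here. Nothing states that libraries of a group came from separate animals, so each p-value speaks only to library-to-library spread, possibly technical.

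D-type cyclins bind CDK4 and CDK6 in early G1, and cyclin E binds CDK2 later; both kinds of complex phosphorylate the retinoblastoma protein, which then releases E2F factors that switch on genes of DNA replication. INK4 proteins, among them p18 (Cdkn2c) and p19 (Cdkn2d), bind CDK4 and CDK6 and keep D cyclins from activating them. CIP/KIP proteins, among them p21 (Cdkn1a) and p27 (Cdkn1b), inhibit cyclin-CDK2 complexes, and p27 is known for holding resting T cells out of the cycle. Naive T cells are quiescent, and antigen drives them through rapid divisions.

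Values were FPKM, fragments scaled to transcript length and to library size, so levels of different genes may be set side by side. All 10 genes were among the 10185 tested, those with 1 FPKM or more in 3 or more libraries. Low values fell on steps that correspond to whole fragments, from which depths of 19.3 to 31.6 (in units of 1e6 fragments per library) were estimated; total FPKM were 612887 to 720165. All 7 CD8 T cell markers exceeded 1 FPKM on average in each group, with Cd8b1 at 601 FPKM in MLN-primed, 861 in spleen-primed and 1252 in naive cells. Of 3 CD4 T cell genes, Cd4 averaged 0.0786, 0.0735 and 0.212 FPKM in the same groups, Foxp3 0.772, 0.829 and 0.755 FPKM and Cd40lg 5.86, 5.42 and 14.9 FPKM. Their sums were 5.73 to 7.57 FPKM in MLN-primed, 5.16 to 7.24 in spleen-primed and 14.4 to 18.1 in naive libraries, mostly Cd40lg. Summed markers of other cells were 11.2 to 14.5 FPKM in MLN-primed, 6.46 to 8.26 in spleen-primed and 11.1 to 14.9 in naive libraries for the 5 B cell genes, of which 1, Cd79b, exceeded 1 FPKM on average in each group. For 6 myeloid genes with a row the sums were 7.39 to 8.47, 16.4 to 18.2 and 5.68 to 45.6 FPKM, mostly Cd68 in primed cells, and for 5 red cell genes 0.335 to 50.1, 2.92 to 30.1 and 8.13 to 45.1 FPKM. Sums for 5 dendritic cell genes were 0.462 to 0.512, 0.569 to 0.678 and 0.975 to 2.23 FPKM, and for 5 epithelial genes 1.51 to 1.98, 0.885 to 1.02 and 0.856 to 1.22 FPKM. The part of such cells in the results below was not tested. In bulk RNA, fewer cells that express a gene and less RNA per cell cannot be told apart, and neither can a change in the share of cells in each phase of the cycle.

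Between the primed groups, 3 of the 4 inhibitors among the 10 genes fell and 1 kinase rose. Cdkn2d, Cdkn2c and Cdkn1b were lower in MLN-primed cells and Cdk4 was higher, each set against spleen-primed cells by limma at an adjusted p under 0.05. These 4 calls compare with 30.4% of all tested genes that passed in this comparison, 17.3% higher and 13.1% lower. The values of both groups did not overlap for 7 of the 10 genes, against 46.1% of all tested genes; 4 lay above and 3 below, against 25.1% and 21%. The median log2 difference of the 10 genes was -0.06, against 0.03 over all tested genes.

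**Figure D1:**
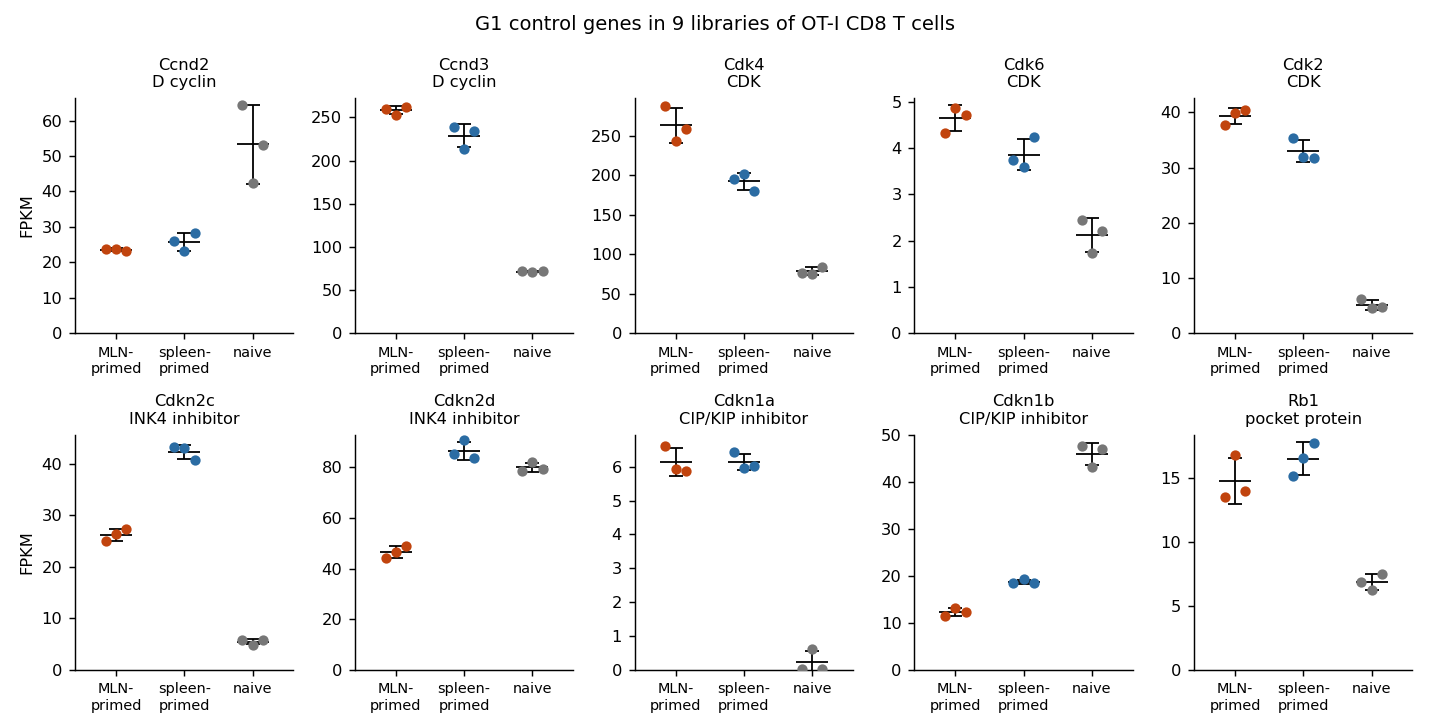
FPKM (y axes, each from 0) of the 10 G1 control genes in the 3 MLN-primed, 3 spleen-primed and 3 naive libraries; points are libraries, the wide bar is the mean and the whiskers are the SD. Cdkn2d, Cdkn2c and Cdkn1b sit lower in all MLN-primed than in all spleen-primed libraries, Cdk4 sits higher, and Cdkn2d of naive cells sits near that of spleen-primed cells.

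Cdkn2d, the p19 INK4 inhibitor, showed the widest gap of the 10 genes between the primed groups. It was at 44.4, 46.7 and 48.9 FPKM in MLN-primed libraries and at 85.4, 90.7 and 83.8 FPKM in spleen-primed libraries. Naive libraries held 78.6, 82.0 and 79.6 FPKM. The groups of primed cells thus lay far apart, while spleen-primed values began just above the naive ones. The MLN-primed mean was 0.538 times the spleen-primed mean, or -0.88 ± 0.06 on the log2 scale (± SE throughout; limma, adjusted p = 2.15e-05, lower in 3 of 3 libraries). Every log2 difference was taken after adding 1 to the FPKM, and so understates the change of a gene near 0. Against naive cells, Cdkn2d fell in MLN-primed cells by 0.77 on the log2 scale (limma, adjusted p = 1.38e-06) but did not pass in spleen-primed cells (0.11 ± 0.06, adjusted p = 0.126). That small spleen-primed difference changes sign with the scaling of the libraries, to -0.01 with median-of-ratios scaling, which is also the median of all tested genes there, and to -0.43 with quantile normalisation, so no direction is given for it.

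Cdkn2c, the p18 INK4 inhibitor, had 25.0, 26.4 and 27.3 FPKM in MLN-primed libraries, 43.3, 43.1 and 40.9 FPKM in spleen-primed libraries and 5.86, 4.85 and 5.70 FPKM in naive libraries. The 3 groups did not overlap, and naive cells had the lowest level. Over naive cells it rose in both primed groups, by 2.08 ± 0.08 in MLN-primed and 2.75 ± 0.08 in spleen-primed cells on the log2 scale (limma, adjusted p = 6.28e-09 and 1.04e-09). MLN-primed cells held 0.618 times the spleen-primed level (log2 difference -0.67 ± 0.08, limma, adjusted p = 3.33e-04). Both INK4 genes were thus lower in MLN-primed cells, although they stood on opposite sides of their naive level: Cdkn2c above it and Cdkn2d below it in MLN-primed cells.

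The other INK4 genes were at low levels. Cdkn2a, which encodes p16 and ARF, was at 1.17, 0.817 and 1.19 FPKM in MLN-primed libraries, at 2.26, 1.79 and 3.17 FPKM in spleen-primed libraries, and at 0, 0.0508 and 0 FPKM in naive libraries. It too was lower in MLN-primed cells (log2 difference -0.71 ± 0.14, limma, adjusted p = 0.00423). Cdkn2b was listed at 0 in all naive libraries, did not exceed 0.205 FPKM in any library, and was not tested. Cdkn2c made up 35.5% ± 0.215 of the summed INK4 FPKM in MLN-primed, 32.2% ± 0.668 in spleen-primed and 6.40% ± 0.724 in naive libraries (mean ± SD, n = 3), and Cdkn2d most of the rest. Summed INK4 FPKM were 73.9 ± 3.45 in MLN-primed, 132 ± 3.89 in spleen-primed and 85.6 ± 1.27 in naive libraries, so spleen-primed cells held the most and MLN-primed cells the least.

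Cdkn1b, which encodes p27, was at 11.5, 13.2 and 12.4 FPKM in MLN-primed libraries and at 18.5, 19.2 and 18.4 FPKM in spleen-primed libraries. In naive libraries it was at 47.5, 43.2 and 46.8 FPKM. The levels ran in 1 order without overlap, MLN-primed below spleen-primed below naive. MLN-primed cells differed from spleen-primed cells by -0.56 ± 0.07 on the log2 scale, or 0.662 times the level (limma, adjusted p = 5.26e-04). Against naive cells MLN-primed cells fell by 1.81 and spleen-primed cells fell by 1.25 (limma, adjusted p = 8.42e-09 and 1.60e-07).

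Cdkn1a, which encodes p21, did not follow the other inhibitors. It was at 6.62, 5.93 and 5.87 FPKM in MLN-primed libraries and at 6.42, 5.97 and 6.03 FPKM in spleen-primed libraries, with overlapping values and a log2 difference of 0.00 ± 0.16 (limma, adjusted p = 0.997). Naive libraries held 0.028, 0.607 and 0.0253 FPKM, which in naive 1 and naive 3 is about the worth of a single fragment (an estimated 0.766 and 0.765 fragments). Naive 2 held an estimated 20.7 fragments. All 6 primed libraries lay above all naive ones, and the rise was 2.58 ± 0.16 in each primed group (limma, adjusted p = 1.87e-07 in MLN-primed and 2.34e-07 in spleen-primed cells). Because naive values are near 0, its size depends on the pseudocount, and with 0.1 in place of 1 it was 4.79 in MLN-primed and 4.80 in spleen-primed cells. The other 9 genes rested on at least an estimated 202 fragments in every library.

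Within the CIP/KIP family the make-up changed with priming. Cdkn1a took 32.6% ± 2.88 of the family's FPKM in MLN-primed, 24.4% ± 1.08 in spleen-primed and 0.499% ± 0.766 in naive libraries, and Cdkn1b took 65.6% ± 2.85, 74.4% ± 0.904 and 99.2% ± 0.798. Cdkn1c, which encodes p57, stayed between 0.112 and 0.512 FPKM and was not tested. The shares of both primed groups did not overlap. Since Cdkn1a itself was at like levels in both primed groups, the gap in its share went with the lower Cdkn1b of MLN-primed cells.

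Among the kinases, Cdk4, the partner of D cyclins, was the 1 member to rise between the primed groups. It had 288, 244 and 259 FPKM in MLN-primed libraries, 196, 201 and 180 FPKM in spleen-primed libraries and 76.0, 75.2 and 84.1 FPKM in naive libraries. The groups did not overlap and stood in that order. The MLN-primed mean was 1.37 times the spleen-primed mean (log2 difference 0.45 ± 0.08, limma, adjusted p = 0.00261), and over naive cells Cdk4 rose by 1.73 ± 0.08 in MLN-primed and 1.28 ± 0.08 in spleen-primed cells (limma, adjusted p = 2.30e-08 and 2.64e-07). Exons of Cdk4 share 641 bases with Tspan31 on the opposite strand, whose FPKM averaged 53.0 in MLN-primed, 48.6 in spleen-primed and 12.4 in naive cells. The use of strand in quantification is not given in the sources used here, so reads of that stretch could belong to either gene.

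Cdk6, the second partner of D cyclins, had far lower FPKM. It was at 4.33, 4.88 and 4.72 FPKM in MLN-primed libraries, 3.75, 3.58 and 4.23 FPKM in spleen-primed libraries and 2.44, 1.72 and 2.21 FPKM in naive libraries. All 3 groups were without overlap, but the difference between the primed groups did not pass (0.22 ± 0.11, limma, adjusted p = 0.152). Over naive cells Cdk6 rose by 0.86 ± 0.11 in MLN-primed and 0.64 ± 0.11 in spleen-primed cells (limma, adjusted p = 3.34e-05 and 3.20e-04). Of the summed FPKM of Cdk4, Cdk6 and Cdk2, Cdk6 gave 1.52% ± 0.189, 1.69% ± 0.238 and 2.48% ± 0.392 in MLN-primed, spleen-primed and naive libraries, and Cdk4 gave 85.6% ± 1.43, 83.9% ± 0.955 and 91.5% ± 1.44.

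Cdk2, the kinase that cyclin E and cyclin A activate, gained most among the 3 kinases over naive cells. It was at 37.7, 39.8 and 40.5 FPKM in MLN-primed libraries, 35.3, 31.9 and 31.7 FPKM in spleen-primed libraries and 6.12, 4.53 and 4.70 FPKM in naive libraries. Its rise was 2.73 ± 0.10 in MLN-primed and 2.48 ± 0.10 in spleen-primed cells (limma, adjusted p = 4.71e-09 and 1.14e-08). Every MLN-primed library exceeded every spleen-primed one, yet the difference between the groups did not pass (0.25 ± 0.10, limma, adjusted p = 0.0924). Leaving out naive 1, or all naive libraries, brought it past the threshold (limma, adjusted p = 0.0265 and 0.0294).

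The D cyclins moved in opposite directions with priming. Ccnd3 was at 260, 253 and 262 FPKM in MLN-primed libraries, 239, 214 and 234 FPKM in spleen-primed libraries and 71.5, 70.8 and 71.4 FPKM in naive libraries. Ccnd2 was at 23.7, 23.9 and 23.2 FPKM in MLN-primed libraries, 25.9, 23.2 and 28.2 FPKM in spleen-primed libraries and 64.3, 42.2 and 53.2 FPKM in naive libraries. In naive cells Ccnd2 lay somewhat below Ccnd3, whereas primed cells held mainly Ccnd3. Over naive cells Ccnd3 rose by 1.84 ± 0.06 in MLN-primed and 1.67 ± 0.06 in spleen-primed cells (limma, adjusted p = 1.96e-09 and 4.46e-09). Ccnd2 fell to 0.443 times the naive mean in MLN-primed cells and to 0.483 times in spleen-primed cells (limma, adjusted p = 2.53e-05 and 6.63e-05).

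Ccnd3 accounted for 91.6% ± 0.235 of D cyclin FPKM in MLN-primed, 89.8% ± 0.527 in spleen-primed and 57.3% ± 4.96 in naive libraries. Ccnd1, the remaining D cyclin, was at 0.230 to 0.636 FPKM in all libraries and was not tested. Between the primed groups Ccnd2 values overlapped (log2 difference -0.12 ± 0.13, limma, adjusted p = 0.556). Ccnd3 values did not overlap, with all MLN-primed libraries higher, but the difference missed the threshold narrowly (0.18 ± 0.06, limma, adjusted p = 0.0511). It passed with no filter on low values, with a filter of 5 FPKM, with the replicate number as a block and after removal of a length trend (limma, adjusted p = 0.0351, 0.0471, 0.0465 and 0.0354). It lay further from the threshold with median-of-ratios scaling (0.13, limma, adjusted p = 0.210), without spleen-primed 2 (0.13, adjusted p = 0.194) and without MLN-primed 3 (0.17, adjusted p = 0.145).

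Rb1, the pocket protein gene that these kinases act on, was at 13.6, 16.8 and 14.0 FPKM in MLN-primed libraries, 15.2, 16.6 and 17.8 FPKM in spleen-primed libraries and 6.88, 6.23 and 7.47 FPKM in naive libraries. Values of the primed groups overlapped, and their difference did not pass (-0.15 ± 0.10, limma, adjusted p = 0.309). Its mean in MLN-primed cells was 2.16 times that of naive cells, and in spleen-primed cells 2.41 times (limma, adjusted p = 9.56e-06 and 4.02e-06). Exons of Rb1 share 408 bases with Lpar6 and 488 with Rcbtb2, those of Ccnd3 share 361 with Bysl, and those of Cdk2 share 34 with Pmel, all on the opposite strand. Exons of Ccnd2 share 368 bases with 9330179D12Rik and 372 with Gm43126. Those of Cdk6 share 368 with Gm17590 and those of Cdkn1a 273 with AC167363.2, again on the opposite strand in each case. Cdkn1b, Cdkn2c and Cdkn2d share none. Lpar6 averaged 1.93 FPKM in MLN-primed, 2.87 in spleen-primed and 16.3 in naive cells. Over naive cells that is the opposite direction to Rb1, but the primed means of both genes stood in the same order. Rcbtb2 averaged 12.9, 18.3 and 11.2 FPKM in the same groups, the same order as Rb1. Bysl averaged 17.7, 13.5 and 7.38 FPKM, the same order as Ccnd3, and Pmel 0.352, 0.397 and 0.872 FPKM, the reverse order of Cdk2. The part of these overlaps in the values of Rb1, Ccnd3, Cdk2, Ccnd2, Cdk6 and Cdkn1a was not tested.

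Across both comparisons with naive cells, 10 of the 10 genes passed in MLN-primed cells, 7 higher and 3 lower, where 78.7% of all tested genes passed, 45.5% higher and 33.2% lower. In spleen-primed cells 9 passed, 7 higher and 2 lower, where 75.8% of tested genes passed, 43.1% higher and 32.7% lower. Values did not overlap for 10 genes in MLN-primed over naive cells, 7 above and 3 below, against 80.4%, 45.8% and 34.6% of tested genes. In spleen-primed over naive cells they did not overlap for 10, 8 above and 2 below, against 78.2%, 44.5% and 33.7%. Taken in either direction, these shares are near the background, since most genes differ between primed and naive cells. The 7 of 10 genes higher in each comparison exceed the 45.5% and 43.1% of tested genes, a difference that was not tested. The comparisons share the naive libraries. The median absolute log2 difference was 1.77 in MLN-primed and 1.27 in spleen-primed cells for the 10 genes, against 0.70 and 0.60 for all tested genes. The median over all tested genes was 0.15 and 0.10, and -0.01 in both with median-of-ratios scaling. That shift is small beside the changes of the 10 genes other than Cdkn2d in spleen-primed cells. Across the 20 alternatives, sizes over naive cells moved further. Cdk4 ranged from 1.14 to 1.79 in MLN-primed and from 0.72 to 1.33 in spleen-primed cells. In MLN-primed cells Ccnd3 ranged from 1.28 to 1.86 and Cdkn2d from -1.31 to -0.73. These kept their sign and their call in every alternative.

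**Figure D2:**
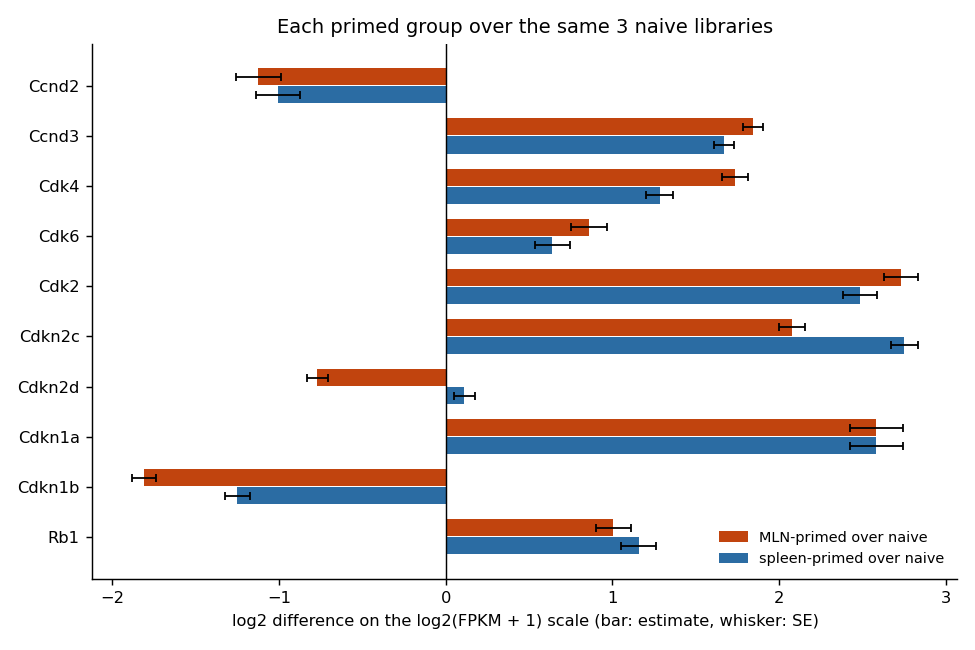
Log2 difference on the log2(FPKM + 1) scale (x axis) of each of the 10 genes (y axis) in MLN-primed over naive (upper bar) and spleen-primed over naive cells (lower bar); whiskers are the SE of the limma fit, and both comparisons use the same naive libraries. Ccnd2 and Cdkn1b are below 0 in both, Cdkn2d is at -0.77 and 0.11, and the other 7 genes are above 0 in both.

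Ratios of FPKM within a library set kinases against their inhibitors, as transcripts and not as protein. Cdk4 plus Cdk6 over the summed INK4 genes came to 4.14, 3.37 and 3.40 in MLN-primed libraries, 1.52, 1.51 and 1.44 in spleen-primed libraries and 0.928, 0.885 and 1.01 in naive libraries. The groups did not overlap. Cdk2 over Cdkn1b came to 3.27, 3.01 and 3.27 in MLN-primed, 1.91, 1.66 and 1.73 in spleen-primed and a mean of 0.111 ± 0.0152 in naive libraries, again without overlap and in the same order. Between the primed groups both orders follow from the genes themselves. Cdk4, Cdk6 and Cdk2 lay above, and the INK4 sum and Cdkn1b below, in every MLN-primed library. The ratios are therefore no separate result there. The order of Cdk2 over Cdkn1b against naive cells follows in the same way. Levels also changed rank. In naive cells Cdkn2d, Cdk4 and Ccnd3 were the most abundant of the 10, with Cdkn2d and Cdk4 overlapping. In MLN-primed cells Cdk4 and Ccnd3 led and overlapped, with Cdkn2d next. In spleen-primed cells Ccnd3 lay above Cdk4 in every library and Cdkn2d again came next.

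**Figure D3:**
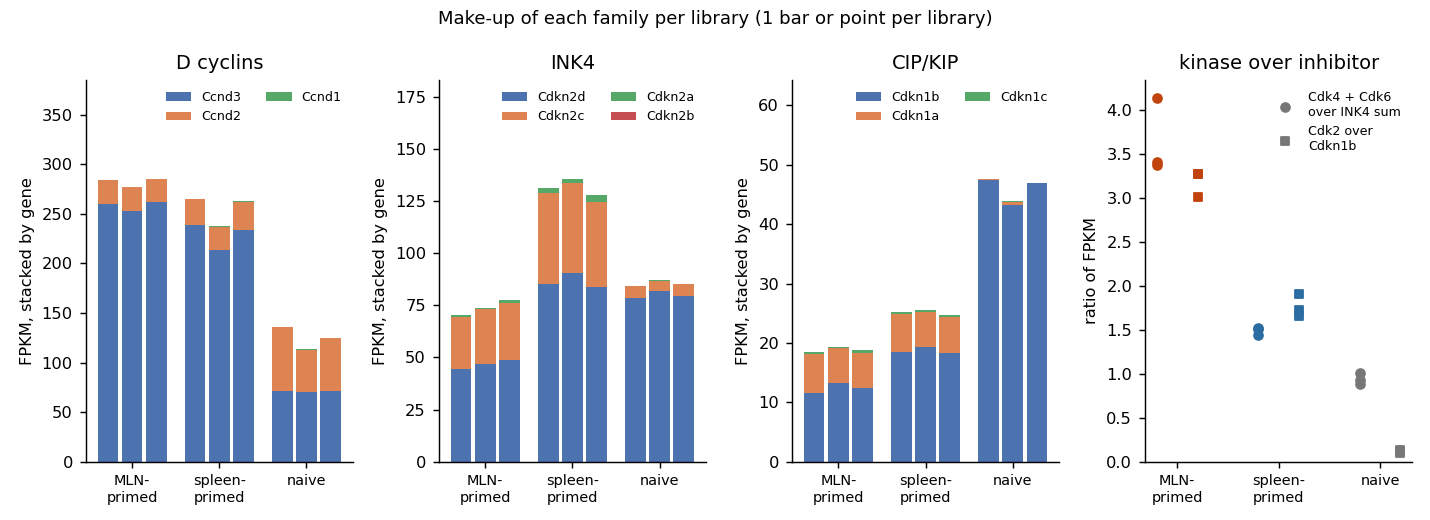
Stacked FPKM of the D cyclins, INK4 and CIP/KIP inhibitors in each library (1 bar per library, y axes from 0), and the ratio of kinase to inhibitor FPKM (right, 1 point per library). Ccnd3 fills most of the D cyclin bars of primed cells, the INK4 bars are tallest in spleen-primed cells, and both ratios are highest in MLN-primed and lowest in naive libraries.

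Sequences before the transcription start were examined for words known to bind E2F factors, FOXO factors, which promote quiescence, and E-box factors such as MYC. RefSeq windows of 250 bases before to 50 bases after the start, on GRCm38.p6, were found for 8 of the 10 genes (11 windows), all but Ccnd2 and Rb1. Both strands were searched for the E2F word TTCCCGC with its variants TTGGCGC or else TTCGCGC or else TTGCCGC, for the E-box CACGTG and for the FOXO word GTAAACA, which do not overlap one another in these windows. The Cdk4 window, chr10:127063285-127063584 on the plus strand, held 4 E-boxes, at positions -172, -118, -98 and -11 from the start. At least 4 occur in 8 of 32851 windows (0.0244%), and at least 1 in 7.15%. The Cdk2 window, chr10:128705002-128705301 on the minus strand, held 3 E2F words, at -140, -10 and 40, a number reached by 0.131% of windows, with 9.57% holding at least 1. A window of Cdkn2c, chr4:109666707-109667006 on the minus strand, held 1 E2F word at -25. The Cdkn2d window, chr9:21291160-21291459 on the minus strand, held none of these words. The 4 windows are shown because they belong to the kinase genes with repeated words and to the INK4 genes that were lower in MLN-primed cells; they read 5′ to 3′ along the gene, with matched words in capitals.
Cdk4: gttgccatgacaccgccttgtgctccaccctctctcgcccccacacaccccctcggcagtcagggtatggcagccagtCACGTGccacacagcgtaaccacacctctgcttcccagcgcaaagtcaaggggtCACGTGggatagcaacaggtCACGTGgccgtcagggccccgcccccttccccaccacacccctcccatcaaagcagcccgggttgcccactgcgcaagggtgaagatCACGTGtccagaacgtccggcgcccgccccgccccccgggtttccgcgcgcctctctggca
Cdk2: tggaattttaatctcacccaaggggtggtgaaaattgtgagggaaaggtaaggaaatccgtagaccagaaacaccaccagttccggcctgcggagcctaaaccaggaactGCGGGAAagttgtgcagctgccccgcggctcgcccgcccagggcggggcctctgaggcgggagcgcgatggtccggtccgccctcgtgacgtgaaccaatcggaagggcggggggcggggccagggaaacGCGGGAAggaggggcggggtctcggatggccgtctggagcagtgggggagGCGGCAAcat
Cdkn2c: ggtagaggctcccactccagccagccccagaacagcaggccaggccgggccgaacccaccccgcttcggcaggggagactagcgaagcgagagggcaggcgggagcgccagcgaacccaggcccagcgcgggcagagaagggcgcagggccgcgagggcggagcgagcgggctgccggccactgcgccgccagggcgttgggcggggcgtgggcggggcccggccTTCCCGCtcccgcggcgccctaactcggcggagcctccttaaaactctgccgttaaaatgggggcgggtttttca
Cdkn2d: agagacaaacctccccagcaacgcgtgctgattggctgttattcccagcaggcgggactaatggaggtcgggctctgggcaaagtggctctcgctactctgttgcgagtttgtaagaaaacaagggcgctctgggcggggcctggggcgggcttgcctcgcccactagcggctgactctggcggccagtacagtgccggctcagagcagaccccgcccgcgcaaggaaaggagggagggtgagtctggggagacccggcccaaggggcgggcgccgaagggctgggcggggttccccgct
Of the other windows, a second one of Cdkn2c and that of Cdk6 each held 1 E-box, and 1 of the windows of Ccnd3 held a FOXO word (3.65% of all windows). The windows of Cdkn1a and Cdkn1b held none. A match is a description of the letters and does not show that a factor binds there. In the same assembly Cdk4 (gene ID 12567) spans 127063535 to 127067288 on chromosome 10, Cdkn2d (12581) 21288459 to 21291421 on chromosome 9, Cdkn2c (12580) 109660876 to 109666756 on chromosome 4 and Cdkn1b (12576) 134920401 to 134925525 on chromosome 6, all protein-coding.

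Further regulators of the same step were read from a list of 18 genes, of which 15 were tested. Between the primed groups 5 were higher and 1, Cdkn2a, was lower, where 17.3% of all tested genes were higher and 13.1% lower. Their median log2 difference was 0.22, against 0.03 over all tested genes. The rises were in the E cyclins Ccne1 (0.69) and Ccne2 (0.53), which activate CDK2, the phosphatase Cdc25a (0.60), which removes inhibitory phosphates from CDK2, the ubiquitin ligase subunit Skp2 (0.51), which marks p27 for degradation, and Mnat1 (0.36), of the CDK-activating kinase. Skp2 was at 8.74, 7.35 and 7.80 FPKM in MLN-primed libraries, 5.48, 4.77 and 5.69 FPKM in spleen-primed libraries and 0.983, 0.558 and 0.699 FPKM in naive libraries. Its 3 groups did not overlap, and their order is the reverse of that of Cdkn1b RNA. These data hold no p27 protein levels, and a link between the 2 orders was not tested. Cdc25a was at 19.1, 20.6 and 20.8 FPKM in MLN-primed, 12.8, 12.0 and 14.2 in spleen-primed and 5.86, 4.31 and 5.69 in naive libraries, in the same order as Skp2. The call of Ccne2 ended without spleen-primed 2, and also when spleen-primed 3 was left out together with MLN-primed 1. That of Mnat1 ended in 6 of 20 alternatives, among them the fits without spleen-primed 1, spleen-primed 2, MLN-primed 1 or MLN-primed 3, and without spleen-primed 2 the count fell to 3. Cks1b, a subunit that helps Skp2 take up p27, rose strongly over naive cells (4.87 in MLN-primed and 4.94 in spleen-primed cells) but did not pass between the primed groups (-0.08, limma, adjusted p = 0.637).

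Over naive cells 9 of these 15 genes rose and 2 fell in each primed group, a share no higher than the 78.7% (MLN-primed) and 75.8% (spleen-primed) of all tested genes that passed. The largest rises were those of Cks1b, Ccne2 (4.24 in MLN-primed and 3.71 in spleen-primed cells) and Ccne1 (3.71 and 3.02). Rnf123, of a complex that degrades p27 in early G1, fell by 1.10 and by 1.05, and Ambra1, which directs the degradation of D cyclins, fell by 0.71 and by 0.60. The next lowest values were those of Fbxw7 in MLN-primed cells (-0.29) and Cdk7 in spleen-primed cells (-0.10), neither of which passed (limma, adjusted p = 0.259 and 0.354).

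Relatives and partners of Rb1 formed a list of 17 tested genes. Between the primed groups 3 were higher, namely Tfdp1 (0.52), E2f4 (0.51) and E2f6 (0.34), and 2 were lower, the pocket protein genes Rbl1 (-0.42) and Rbl2 (-0.43), with a list median of 0.01. These 5 of 17 are near the 30.4% of all tested genes that passed in this comparison. Rbl2, which encodes p130 and marks quiescent cells, was at 12.7, 16.7 and 15.4 FPKM in MLN-primed, 18.6, 19.7 and 22.8 in spleen-primed and 31.0, 30.0 and 30.3 in naive libraries, the same order as Cdkn1b. Rbl1, which encodes p107, was at 23.5, 25.5 and 21.5 FPKM in MLN-primed, 31.4, 32.1 and 31.5 in spleen-primed and 12.7, 11.9 and 13.0 in naive libraries, an order shared with Cdkn2c. The call of E2f4 ended without spleen-primed 1, spleen-primed 2, MLN-primed 2 or MLN-primed 3 and with no filter on low values. E2f6 lost its call without spleen-primed 2 or MLN-primed 3. The count of higher genes fell to 1 without spleen-primed 2 or without MLN-primed 3, and reached 6 when spleen-primed 3 was left out together with MLN-primed 1.

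Over naive cells 13 of the 17 rose and 4 fell in MLN-primed cells, and 13 rose and 3 fell in spleen-primed cells. Of all tested genes 45.5% rose and 33.2% fell in MLN-primed cells, and 43.1% rose and 32.7% fell in spleen-primed cells. On the log2(FPKM + 1) scale E2f8 rose by 4.80 in MLN-primed and 4.61 in spleen-primed cells and E2f2 by 3.91 and 4.0, followed by Tfdp1 (3.29) in MLN-primed and E2f1 (2.95) in spleen-primed cells. Tfdp2, Rbl2 and E2f5 fell in both groups, to 0.321, 0.490 and 0.633 times the naive mean in MLN-primed cells, and to 0.359, 0.670 and 0.653 times in spleen-primed cells.

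**Figure D4:**
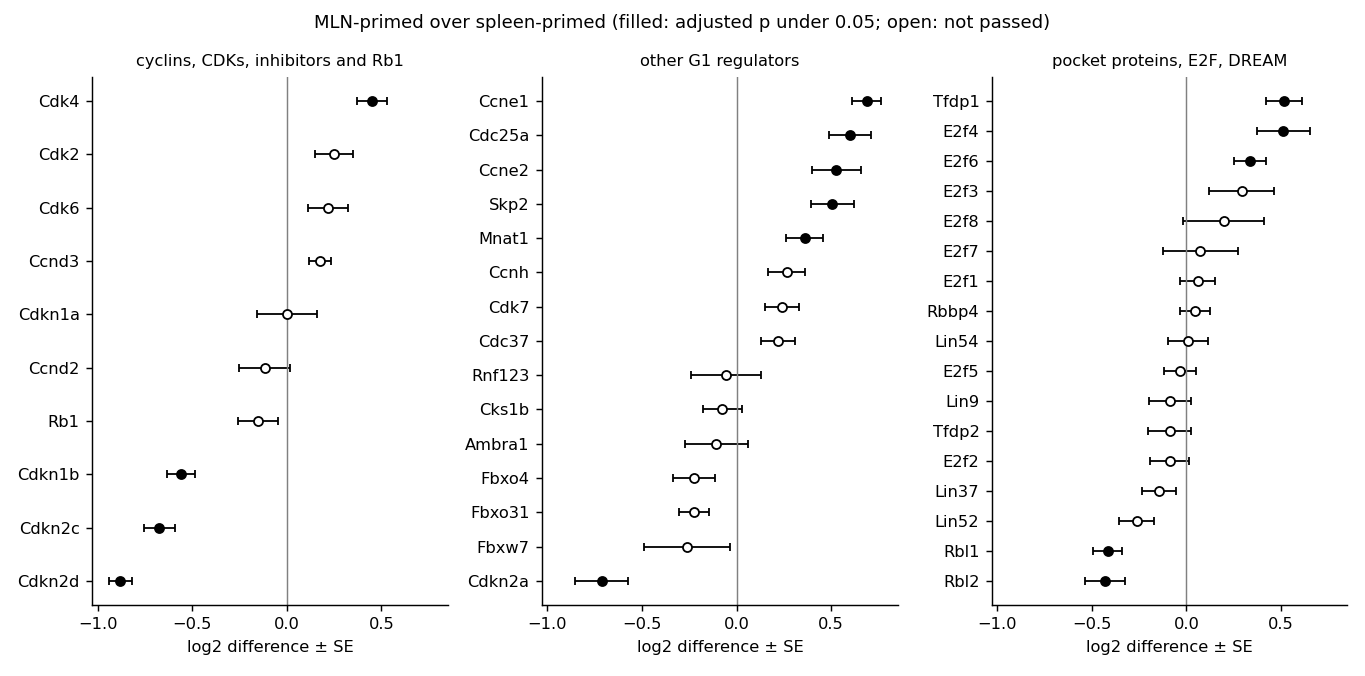
Log2 difference of MLN-primed over spleen-primed cells on the log2(FPKM + 1) scale (x axes) with the SE of the limma fit, for the 10 G1 genes, the other G1 regulators and the pocket protein, E2F and DREAM genes that were tested; filled points have an adjusted p under 0.05. Cdk4 is filled on the right of 0, and Cdkn1b, Cdkn2c, Cdkn2d, Cdkn2a, Rbl1 and Rbl2 are filled on the left.

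Genes that E2F factors drive at the start of S phase were read from a list of 24, all tested. All 24 rose over naive cells in both primed groups, where 45.5% of all tested genes rose in MLN-primed and 43.1% in spleen-primed cells. Their median log2 difference was 4.0 in MLN-primed and 3.55 in spleen-primed cells, against 0.15 and 0.10 over all tested genes. Between the primed groups 12 were higher and 0 lower by limma at an adjusted p under 0.05, where 17.3% of all tested genes were higher and 13.1% lower. The median was 0.24, against 0.03 over all tested genes. At an unadjusted p under 0.05 the counts were 14 and 0, for which no share of all tested genes was taken. The widest gaps were those of the DNA replication genes Orc1 (0.66) and Mcm10 (0.63). Orc1 was at 16.7, 16.3 and 15.4 FPKM in MLN-primed libraries, against 10.1, 10.1 and 9.28 in spleen-primed ones. Of those that did not pass, Ccna2 averaged 190 FPKM in MLN-primed cells against 186 in spleen-primed ones, and Cdk1 93.1 against 95.6 FPKM (limma, adjusted p = 0.875 and 0.837). Rrm1 (0.20), Rrm2 (0.24), Tk1 (0.23) and Cdc45 (0.20) did not pass either, though every MLN-primed library exceeded every spleen-primed one. Dnmt1 spread widely within groups, at 63.6, 130 and 132 FPKM in MLN-primed and 68.4, 76.9 and 129 in spleen-primed libraries. Mki67, which is not on the list, was at 8.32, 76.0 and 84.1 FPKM against 13.4, 22.4 and 87.1. Neither passed (limma, adjusted p = 0.610 and 0.797). Values lay above without overlap for 16 of the 24 genes and below for 0, against 25.1% and 21% of all tested genes. The count of 12 fell to 6 with median-of-ratios scaling and to 7 without MLN-primed 2. Of the 12 calls, 8 ended in at least 1 alternative, among them that of Mcm10 with a pseudocount of 0.1 (0.65, limma, adjusted p = 0.107).

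Within the primed groups, libraries deviated from their group mean along transcript length, from -0.0888 log2 units per doubling of length in MLN-primed 1 to 0.0779 in spleen-primed 3. The longest transcripts among the 10 genes were those of Cdk6 (11525 bases) and Ccnd2 (6330 bases). Cdkn2d, Cdkn2c, Cdkn1b and Cdk4, with lengths of 1423 to 2393 bases, passed between the primed groups in each of 20 alternatives, including the fit without those 2 libraries and the one with the length trend removed. Across them the log2 difference was -0.93 to -0.85 for Cdkn2d, -0.72 to -0.64 for Cdkn2c, -0.61 to -0.51 for Cdkn1b and 0.34 to 0.50 for Cdk4.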

How the data were processed

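Libraries of OT-I CD8 T cell RNA were prepared, per the labels' protocols, with TruSeq Stranded mRNA reagents. The deposited FPKM were made by the authors with TopHat and Cufflinks on mm10 (named in the submitters' processing notes, without versions); how strand and filters were handled is not given in the sources used here. A second deposited table was byte for byte the same and was not used. Of 24067 rows, 131 without a symbol (0.0479% of FPKM) were left out.

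FPKM were used as deposited, as log2(FPKM + 1). The 10185 genes that had 1 FPKM or more in 3 or more libraries were fitted with limma 3.58.1 (R 4.3.3, limma-trend), with 1 model over 9 libraries, two-sided, and with p-values adjusted by Benjamini-Hochberg across the tested genes. Simulated data were used to test the fit. The 10 genes and the gene lists were chosen with earlier results of these data known. Besides the 10 genes, genes are named where they pass between the primed groups or are among the 3 largest or smallest changes of the first 2 lists over naive. Family members at low levels, some S phase genes that did not pass, and Mki67 are named beside them. FPKM do not keep fragment numbers; depth was estimated from the step between low values of single-transcript genes over 2000 bases, with GENCODE M21 lengths, which covered 99.0% of tested genes. Promoter windows came from RefSeq. One gene of the S phase list enters its counts and is not reported here by name. Figures used matplotlib 3.10.9. Same-numbered libraries of the spleen-primed and naive groups deviated together (r = 0.116 to 0.236), whereas pairs with the MLN-primed group ranged from -0.241 to 0.645, so numbers pair no libraries there. Alternatives were other pseudocounts, filters, scalings and variance models, a replicate block and libraries left out; removal of a length trend was chosen after seeing the data.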

Additional observations from a re-analysis of the deposited data

Results flagged for a closer look

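The effects of both primings, each against the same naive libraries, were compared by the test of the difference itself (MLN-primed over spleen-primed, limma, adjusted p under 0.05). Of all tested genes, 30.4% passed. The effects differed for 26 of the genes reported by name. Genes of the lists were named partly because they passed, so no share is taken from these 26. Among the 10 G1 genes these were Cdk4 (log2 difference 0.45), Cdkn1b (-0.56), Cdkn2c (-0.67) and Cdkn2d (-0.88). Among the other G1 regulators they were Ccne1 (0.69), Ccne2 (0.53), Cdkn2a (-0.71), Cdc25a (0.60), Skp2 (0.51) and Mnat1 (0.36). Among the relatives and partners of Rb1 they were Rbl1 (-0.42), Rbl2 (-0.43), E2f4 (0.51), E2f6 (0.34) and Tfdp1 (0.52). Among the S phase genes they included Orc1 (0.66), Mcm10 (0.63), Cdc6 (0.49), Gins2 (0.44), Mcm2 (0.39), Mcm3 (0.27), Mcm4 (0.27), Mcm6 (0.27), Mcm5 (0.26), Mcm7 (0.24) and Cdt1 (0.22). With FPKM as deposited, only Cdkn2d of the 10 G1 genes had a mean below naive cells in 1 primed group and above them in the other. The spleen-primed difference did not pass and changed sign in some alternatives, so no direction is given for it.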

How the results depend on the processing

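Counts of called genes stayed within 1.5 times in every alternative run: 3093 between the primed groups, 8020 in MLN-primed over naive and 7718 in spleen-primed over naive cells. With 1 library left out they were 2139 to 3196, 7654 to 8095 and 7207 to 7911, and with a replicate block 3382, 8207 and 7928, a block that ended no call among the 10 genes and added that of Ccnd3. Quantile normalisation moved the share of higher among called genes in spleen-primed over naive cells to 46.6%, against 56.8%. Between the primed groups median-of-ratios scaling moved that share to 47.8%, against 56.9%, so that lower calls became the majority. Of the 10 genes, 4 to 5 passed between the primed groups in all alternatives; with a filter of 5 FPKM Cdk6 was not tested. Cdkn1a changed sign there, around a difference near 0, without spleen-primed 1 (0.028), MLN-primed 2 (0.019) or MLN-primed 3 (0.026), over a range of -0.048 to 0.028 with 1 library left out, and with the length trend removed (0.0039). Cdkn2d in spleen-primed over naive cells turned to -0.0098 with median-of-ratios scaling, -0.43 with quantile normalisation (limma, adjusted p = 7.93e-05) and -0.10 with the length trend removed, and the cause was not tested. Of the 12 S phase calls between the primed groups, those of Mcm7 (8 of 20 alternatives), Mcm5 (6), Cdt1 (6), Mcm4 (5), Mcm3 (4), Mcm6 (2), Mcm10 (1) and Gins2 (1) ended in some.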
